A study of Arabidopsis thaliana with 6 samples.

Results

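Complex III of the mitochondrial respiratory chain was examined through 10 *Arabidopsis* genes that form 5 pairs of paralogs, meaning gene copies that encode the same subunit. The pairs encode QCR6 (AT2G01090 and AT1G15120), QCR7 (AT4G32470 and AT5G25450), QCR8 (AT3G10860 and AT5G05370), the Rieske iron-sulfur protein (AT5G13430 and AT5G13440) and cytochrome c1 (AT5G40810 and AT3G27240). The set was chosen by measured values in part, because the large difference of AT2G01090 between genotypes was already known from these arrays, and the other members are its paralog and the further pairs of the same complex. Each gene was read at the probe set with the highest mean that the platform annotation ties to it. All 10 genes were tied to a probe set, 9 probe sets in all, out of 22746 tested on the array. Only 7 of the 10 genes had a probe set of their own, and no gene had more than 1.

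The 6 samples were whole *Arabidopsis* seedlings 12 days old, 3 of wild type (WT) and 3 of *fbs1-1*, each hybridized to 1 Affymetrix ATH1 array. All seedlings of both genotypes were kept for 5 days at 24 °C and then for 7 days at 10 °C, so every value describes chilled plants and no warm control was analysed here. The *fbs1-1* line carries a transposon in the first intron of *FBS1*, which encodes an F-box protein, the part of a ubiquitin ligase that selects its targets. Each replicate was RNA of pooled seedlings, and the series describes 3 sets grown independently. The labels give No-0 as the background of both genotypes, while the array names of the WT samples carry Nd0. With 1 insertion line, a difference that comes from the line or its background cannot be told apart from one that follows the loss of *FBS1*. The probe set of *FBS1* itself was not tied to its gene by the tables used here, so the targeted gene was not checked.

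Complex III takes electrons from ubiquinol and passes them to cytochrome c, and it moves protons across the inner mitochondrial membrane as it does so. Its catalytic centres sit on cytochrome b, the Rieske protein and cytochrome c1, and small subunits such as QCR6, QCR7 and QCR8 surround them. In plants the large core subunits are also the mitochondrial processing peptidase, which removes the targeting sequences of imported proteins.

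The arrays were alike in overall signal. Their median log2 intensity lay between 2.62 and 2.72, and 40.2% to 40.8% of probe sets were below 2 on each, a range taken here as the low end of the scale. Tested across all probe sets with limma, 740 of 22746 had an adjusted p under 0.05, which is 3.25%. The *fbs1-1* arrays had the higher mean in 382 of these and the WT arrays in 358. Markers of leaf (*RCA*, Rubisco activase, mean log2 11.51 in WT and 11.60 in *fbs1-1*) and of root (*PYK10*, an ER body beta-glucosidase, 10.03 and 10.10) were high in both genotypes. The root hair gene *EXPA7* was at 2.81 and 3.04, and none of these 3 markers passed limma's test, the only 3 of 12 listed markers that were tied to a probe set.

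AT2G01090 encodes a QCR6 protein, the small acidic hinge subunit that in yeast and mammals lies beside cytochrome c1. Its log2 intensity was 1.08, 1.12 and 0.98 on the WT arrays and 5.55, 5.38 and 5.73 on the *fbs1-1* arrays. The gene was thus at the bottom of the scale on every WT array and well above it on every *fbs1-1* array, and the genotypes did not overlap. The means were 1.06 ± 0.07 in WT and 5.56 ± 0.17 in *fbs1-1* (SD, n = 3), a difference of -4.49 (WT minus *fbs1-1*), or 22.5-fold more signal in *fbs1-1*. Since the WT values lie at the bottom of the scale, where signal follows RNA poorly, this is a fold of signal and the fold in RNA is not known from it. Between the nearest pair of arrays the fold was 19.2, and between the farthest pair it was 26.9. This value was the reason for choosing the gene, so no test is given for it. In whole seedlings, fewer cells that express a gene and less RNA per cell cannot be told apart.

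As a description of the value that chose the gene, the difference was the third largest towards *fbs1-1* among the 22746 probe sets. On the WT arrays only 7.00% to 12.5% of probe sets had a lower value than AT2G01090, whereas on the *fbs1-1* arrays 81.3% to 84.5% did.

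AT1G15120, the other QCR6 gene, stayed level. Its log2 intensity was 7.01, 7.13 and 6.98 in WT and 6.99, 7.01 and 7.01 in *fbs1-1*. All *fbs1-1* values lay inside the range of the WT values. The means were 7.04 ± 0.08 and 7.00 ± 0.01 (SD, n = 3), a difference of 0.04 with a 95% interval of -0.17 to 0.24 (limma, adjusted p = 0.912). No difference beyond the spread between arrays was seen, and the interval leaves room for at most small ones in either direction.

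**Figure D1:**
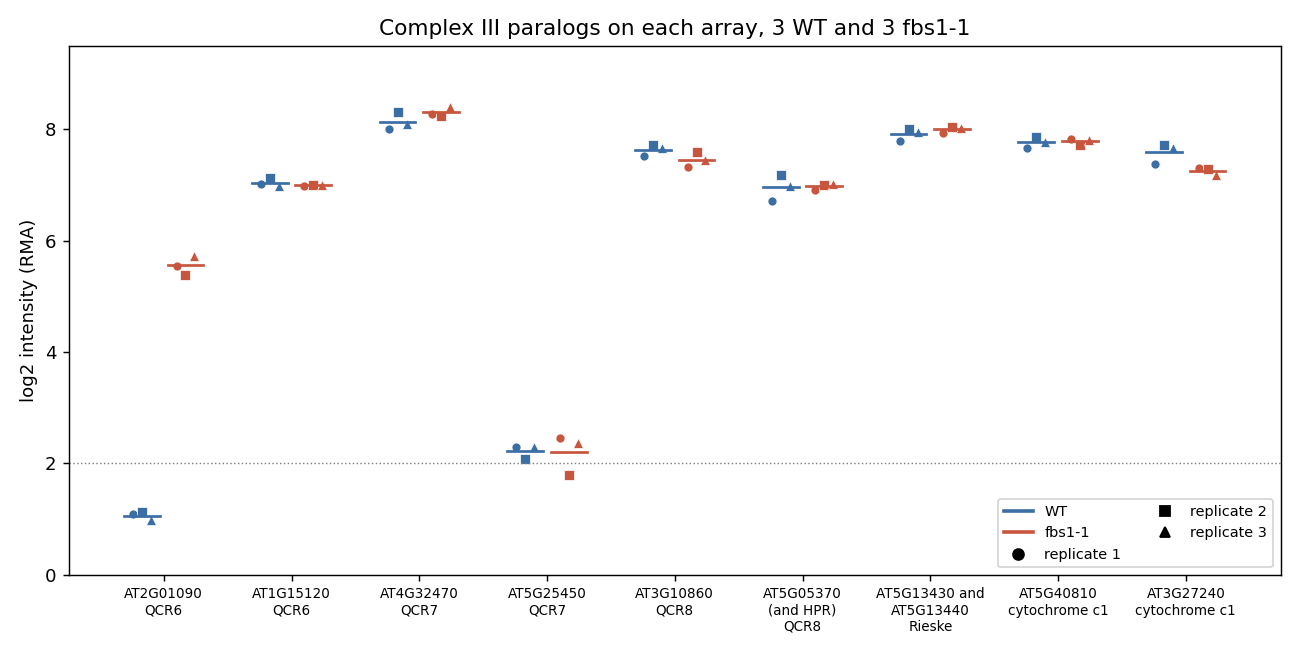
Log2 intensity (RMA) of each complex III probe set on the 3 WT arrays (blue) and the 3 *fbs1-1* arrays (red), with the symbol giving the replicate, bars giving the mean, and the dotted line at 2 marking the low end of the scale. AT2G01090 moves from a mean of 1.06 in WT to 5.56 in *fbs1-1*, while the genotype means of the other 8 probe sets lie within 0.34 of each other.

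Because probes differ in how strongly they bind, levels of paralogs were not compared with each other. Instead, 1 paralog was subtracted from the other on each array, and this difference was compared between genotypes. The probe offset then cancels if each probe set binds equally well in both genotypes, which was not tested. For the QCR6 pair, AT2G01090 minus AT1G15120 was -5.93, -6.01 and -5.99 in WT and -1.44, -1.62 and -1.28 in *fbs1-1*. The shift between genotypes was -4.53 (SE 0.10), which is a 23.1-fold change of AT2G01090 signal relative to its paralog, with the same limit from the low WT signal, and it is given without a test because AT2G01090 chose the pair. Nearly the whole shift lies in AT2G01090.

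QCR7 is a small subunit on the matrix side of the complex. AT4G32470 was at 8.01, 8.32 and 8.10 in WT and at 8.29, 8.24 and 8.39 in *fbs1-1*. The genotypes overlapped, and the difference of -0.17 (95% interval -0.42 to 0.09) did not pass (limma, adjusted p = 0.581). Its paralog AT5G25450 was at 2.30, 2.09 and 2.30 in WT and at 2.45, 1.79 and 2.36 in *fbs1-1*. These values sit at the low end of the scale, where a probe set follows RNA poorly. AT5G25450 also varied most among replicates of all members, with a within-genotype SD of 0.27, against 0.14 for the median probe set and 0.06 for AT1G15120, the steadiest member. Its difference was 0.03 (95% interval -0.36 to 0.42; limma, adjusted p = 0.967).

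QCR8 is a small membrane-spanning subunit. AT3G10860 was at 7.53, 7.72 and 7.67 in WT and at 7.33, 7.59 and 7.45 in *fbs1-1*. The WT mean was higher by 0.18 (95% interval -0.06 to 0.43), but the highest *fbs1-1* array exceeded the lowest WT array and the difference did not pass (limma, adjusted p = 0.508). The probe set of AT5G05370 is also tied to *HPR* (AT1G68010), which encodes the photorespiratory enzyme hydroxypyruvate reductase, so its signal cannot be credited to the QCR8 gene alone. It read 6.71, 7.18 and 6.99 in WT and 6.91, 6.99 and 7.02 in *fbs1-1*, with all *fbs1-1* values inside the WT range (difference -0.02, limma, adjusted p = 0.972).

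The Rieske protein carries the iron-sulfur cluster that accepts the first electron from ubiquinol. AT5G13430 and AT5G13440 are next to each other on chromosome 5, between *TRA2* and *ATP5*, and a single probe set matches both. It was at 7.80, 8.00 and 7.95 in WT and at 7.94, 8.04 and 8.02 in *fbs1-1*. The difference of -0.08 (95% interval -0.31 to 0.14) did not pass (limma, adjusted p = 0.785). Because the copies share this probe set, they could not be compared with each other, and opposite changes in the copies would not be seen.

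Cytochrome c1 is the haem subunit that hands electrons to cytochrome c. AT5G40810 was at 7.67, 7.87 and 7.78 in WT and at 7.83, 7.73 and 7.82 in *fbs1-1*, a difference of -0.02 (95% interval -0.24 to 0.20; limma, adjusted p = 0.963). AT3G27240 was at 7.39, 7.72 and 7.67 in WT and at 7.30, 7.28 and 7.18 in *fbs1-1*. Every WT array was above every *fbs1-1* array for AT3G27240, by 0.09 at the nearest. The means were 7.59 ± 0.18 and 7.26 ± 0.07 (SD, n = 3), so the WT mean was 1.26-fold that of *fbs1-1* (log2 difference 0.34, 95% interval 0.08 to 0.60). The limma p was 0.0164 before adjustment and 0.189 after it, which does not pass. With weights that give less influence to noisier arrays it passed, at 0.41 with an adjusted p of 0.0431. Leaving out 1 array at a time gave adjusted p-values from 0.059 to 0.476 in limma.

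Counted together, the 8 probe sets of the members other than AT2G01090 held 0 that passed limma's adjusted threshold, against 3.25% of all probe sets. Rank products, the test that the methods name, called 0 of the 8 and 2.33% of all. At an unadjusted p under 0.05, 1 of 8 was below, against 14.7% of all, and 1 of 8 had no overlap between genotypes, against 19.7% of all. That 1 probe set was AT3G27240 in both counts, so these shares are near or under the background. Among the 8, 4 had the higher mean in WT and 4 in *fbs1-1*, with a median difference of 0.01, where the median of all probe sets was -0.01. The median size of a difference was 0.06, and over all probe sets it was 0.11. AT3G27240 had the farthest limit of any 95% interval among the 8, at 0.60.

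The member probe sets moved together in part across the WT arrays. WT replicate 2 was the highest WT array in 8 of the 9 member probe sets, where it was the highest in 31.7% of all probe sets. WT replicate 1 was the lowest WT array in 6 of the 9, against 37.8% of all. Among the *fbs1-1* arrays, replicates 1, 2 and 3 were each the highest in 3 of the 9. They were the lowest in 4, 4 and 1. With any 1 array left out, the difference of AT2G01090 was -4.58 to -4.41, a description only, because this difference chose the gene.

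The paralogs of the other measured pairs were compared in the same way. The change of AT4G32470 minus that of AT5G25450 was -0.20 (SE 0.24), with overlapping genotypes (exact two-sided permutation p = 0.5). For QCR8, AT3G10860 minus AT5G05370 was 0.82, 0.54 and 0.68 in WT and 0.41, 0.59 and 0.43 in *fbs1-1*, a shift of 0.20 (SE 0.10; exact two-sided permutation p = 0.2). The QCR7 shift was smaller than the pooled SD within genotypes, 0.30. The QCR8 shift was larger than its pooled SD of 0.12, though the genotypes overlapped. The QCR7 value rests on AT5G25450, whose signal is at the low end of the scale and follows RNA poorly. The QCR8 value may also contain signal of *HPR*, to which the probe set of AT5G05370 is also tied.

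For cytochrome c1, AT5G40810 minus AT3G27240 was 0.28, 0.15 and 0.11 in WT and 0.53, 0.44 and 0.64 in *fbs1-1*. The genotypes did not overlap, and the balance of the pair moved by -0.35 (SE 0.08), or 1.28-fold towards AT5G40810 in *fbs1-1*. The exact two-sided permutation p was 0.1, the smallest that 3 against 3 arrays can give, so this design could not reach 0.05. After Benjamini-Hochberg adjustment over the 3 pairs tested, the exact p was 0.3 for cytochrome c1, 0.3 for QCR8 and 0.5 for QCR7. Most of the cytochrome c1 shift came from AT3G27240, whose own difference was 0.34.

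**Figure D2:**
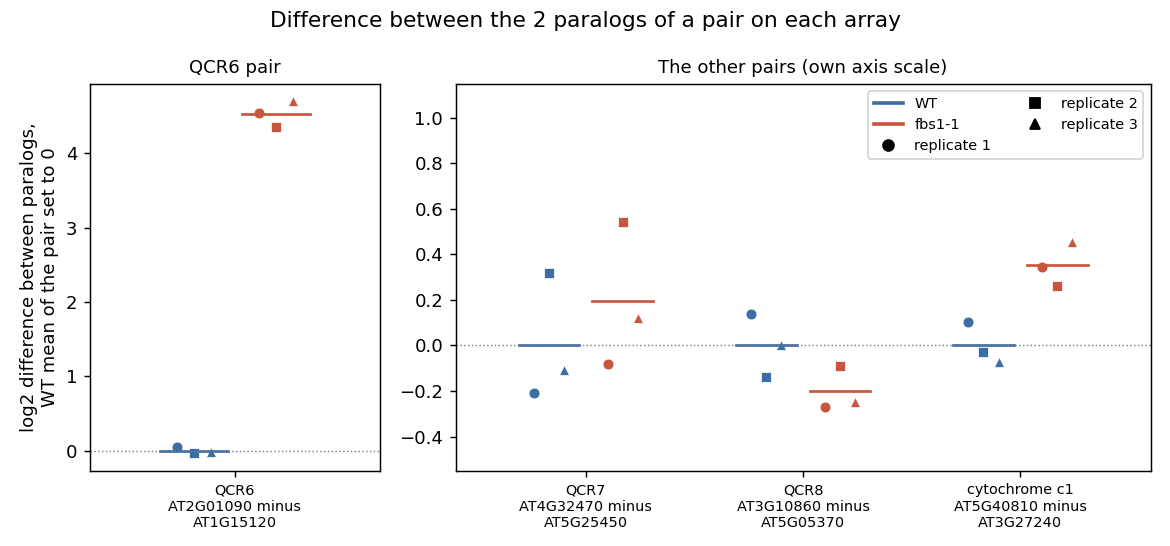
Log2 difference between the paralogs of a pair on each array, with the WT mean of each pair set to 0, for WT (blue) and *fbs1-1* (red), where bars are means and the left panel has its own scale. The QCR6 pair is shifted by 4.53 between genotypes, and of the other pairs only cytochrome c1, shifted by 0.35, has no overlap.

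To set these shifts beside other duplicated subunits, 7 pairings of respiratory paralogs were read the same way, chosen after their values were seen and with 3 of the 7 drawn from the same trio of *COX5c* genes. Their shifts ran from -0.64 to 0.10 in WT minus *fbs1-1*, as a description with no test. The pair of cytochrome c genes was at the far end, with AT1G22840 minus AT4G10040 shifted by -0.64, or 1.56-fold, and it was the only pairing of the 7 without overlap. The shift of the QCR6 pair was far larger than any of these. That ranking is no result, because AT2G01090 was chosen for its large difference. In the pairing of AT5G66760 with AT2G18450, the latter had means of 1.39 in WT and 1.49 in *fbs1-1*. Both are below 2, where signal follows RNA poorly, so the shift of that pairing says little about RNA.

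The remaining complex III subunits with a probe set were all slightly higher in *fbs1-1*, and none passed. AT1G51980, the alpha subunit of the processing peptidase, had means of 7.22 ± 0.13 in WT and 7.49 ± 0.09 in *fbs1-1* (SD, n = 3) without overlap, a difference of -0.27 (limma, adjusted p = 0.275, and 0.0325 before adjustment). The beta subunit AT3G02090 differed by -0.11 (limma, adjusted p = 0.756). Among the small subunits, QCR9 (AT3G52730) differed by -0.04 and QCR10 (AT2G40765) by -0.09, with limma adjusted p of 0.925 and 0.835. The sign of QCR9 and of QCR10 turned when single arrays were left out. The other 2 of the 6 genes listed, which include mitochondrial cytochrome b, were not tied to a probe set.

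Cytochrome c carries electrons from complex III to complex IV. *CYTC-1* (AT1G22840) differed by -0.06 (limma, adjusted p = 0.875). *CYTC-2* (AT4G10040) was at 6.74, 7.09 and 7.14 in WT and at 6.37, 6.70 and 6.14 in *fbs1-1*, without overlap. The WT mean was higher by 0.59 on the log2 scale (SE 0.16). In limma the p was 0.114 after adjustment and 0.00651 before it, which does not pass. It passed only with array weights (adjusted p = 0.0386 in limma).

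Of 69 other respiratory chain genes listed, those tied by the platform annotation gave 34 probe sets. None of the 34 passed limma (3.25% of all probe sets did) or rank products (2.33% of all). At an unadjusted p under 0.05 in limma there were 4 (14.7% of all), of which 1 was higher in WT and 3 in *fbs1-1*. The differences were small and mostly of 1 sign, with 26 of 34 higher in *fbs1-1* and a median of -0.09. Over all probe sets, 11818 of 22746 were higher in *fbs1-1* and the median was -0.01. This lean was not tested, and its count and median were not worked out again with arrays left out. Without WT replicate 1, AT3G02090 went from -0.11 to -0.04 and AT1G22840 from -0.06 to -0.002. AT3G15640 hardly changed, from -0.27 to -0.28, nor did AT5G52840, from -0.28 to -0.27. In complex I, the entry point for NADH electrons, 7 of 8 measured subunits were higher in *fbs1-1*, and B13 (AT5G52840) had the lowest p at -0.28 (limma, adjusted p = 0.173). In complex II, succinate dehydrogenase, the lowest p belonged to the iron-sulfur subunit *SDH2-1* (AT3G27380), at 0.32 (limma, adjusted p = 0.353). In complex IV, cytochrome c oxidase, it belonged to *COX5b-1* (AT3G15640), at -0.27 (limma, adjusted p = 0.180). All 3 ATP synthase probe sets were higher in *fbs1-1*, and the lowest p was that of the beta subunit probe set shared by AT5G08670 and AT5G08690, at -0.17 (limma, adjusted p = 0.464).

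The alternative enzymes of the respiratory chain were covered only in part. None of the 5 alternative oxidase genes, *AOX1A* among them, was tied to a probe set by the tables used here. Of the alternative NADH dehydrogenases, which feed electrons into ubiquinone without pumping protons, 6 of 7 were measured. *NDA1* (AT1G07180), an internal enzyme of this kind, was higher in WT, with means of 6.48 ± 0.08 and 5.71 ± 0.29 (SD, n = 3), which is 1.70-fold (log2 difference 0.76, limma, adjusted p = 0.0287). Its probe set was tied only through the study's table of genes it had found higher in WT, so its call is no independent evidence. The call was lost when any 1 of 5 arrays was left out, with limma adjusted p up to 0.133.

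**Figure D3:**
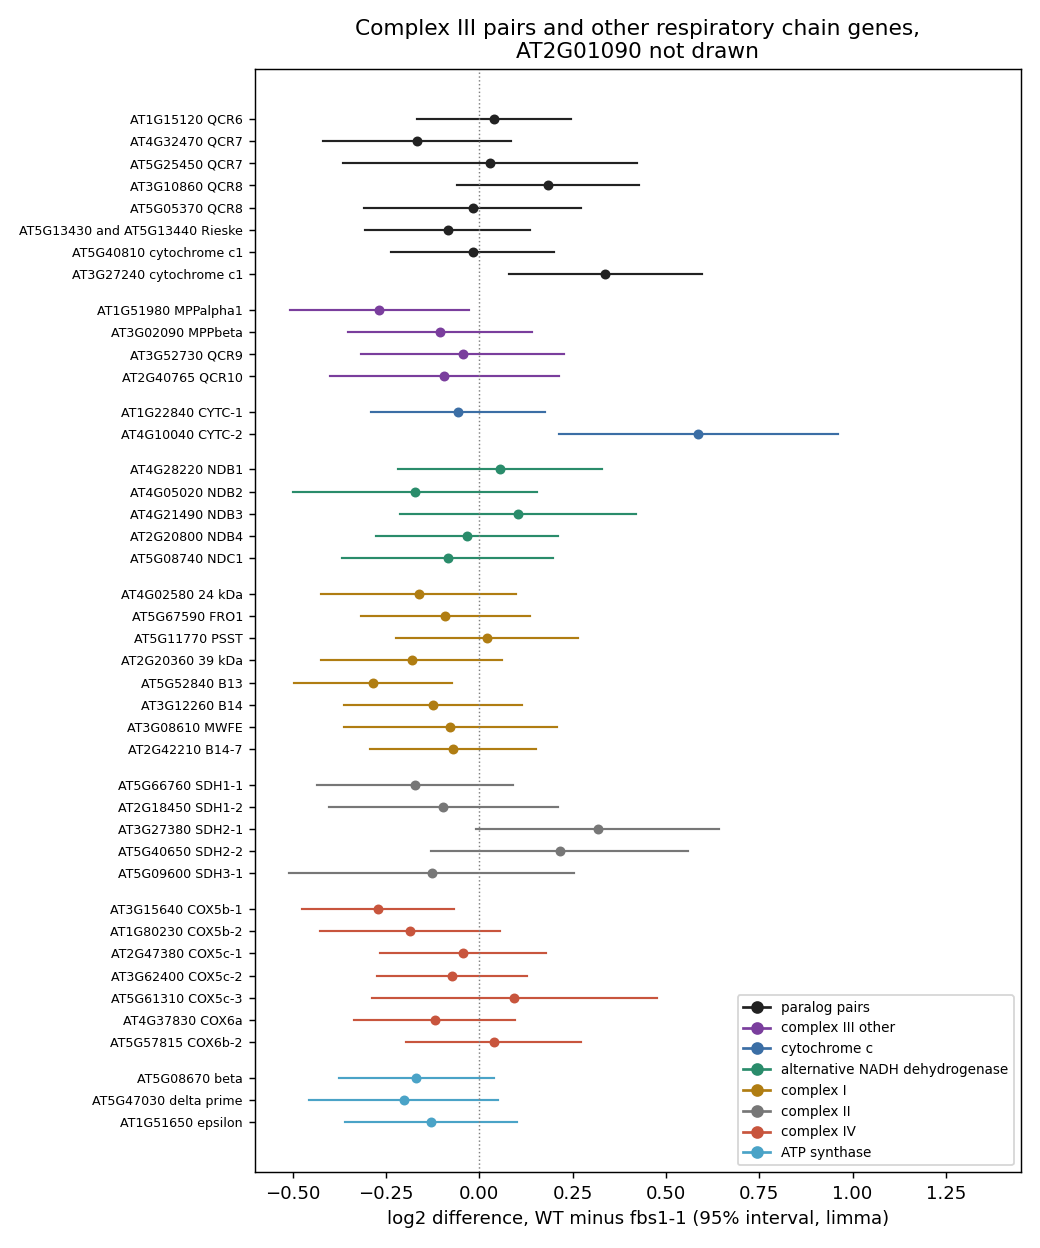
Log2 difference (WT minus *fbs1-1*) with its 95% interval from limma for the members other than AT2G01090 and for the other respiratory chain genes tied by the platform annotation, coloured by complex, with 3 arrays per genotype. Most points lie a little left of 0, and AT4G10040 (0.59) and AT3G27240 (0.34) lie farthest to the right.

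Among the genes measured around AT2G01090 on chromosome 2, none showed a difference like its own. Its 8 nearest measured neighbours, 3 before and 5 after and at most 17 genes away, differed by -0.23 to 0.03. None of the 8 passed limma's test (lowest adjusted p = 0.480), and 0 were below an unadjusted p of 0.05 or called by rank products. AT2G01080 and AT2G01100, the genes next to it on either side, differed by -0.16 and -0.05. Signal was low for part of these neighbours, where it follows RNA poorly. AT2G01130, AT2G01210 and AT2G01240 had means below 2 in both genotypes, and AT2G01080 was at 2.21 in WT and 2.37 in *fbs1-1*. Around all members together, 88 neighbours were measured. None of the 88 passed limma (lowest adjusted p = 0.0530), against 3.25% of all probe sets, and 0 were called by rank products, against 2.33%. At an unadjusted p under 0.05 in limma there were 10 of 88, a share below the 14.7% of all probe sets.

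**Figure D4:**
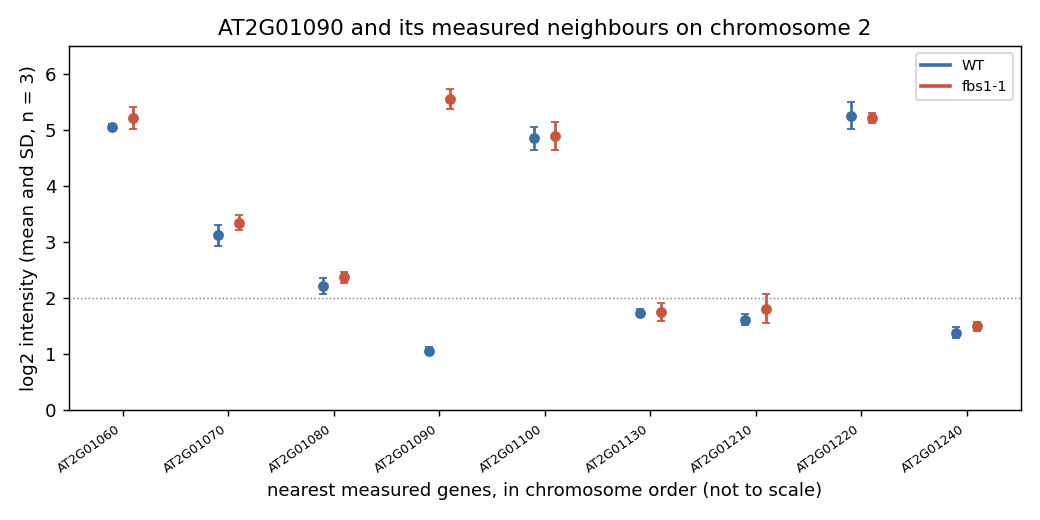
Mean log2 intensity with SD (n = 3) of AT2G01090 and its nearest measured neighbours in chromosome order, not to scale, for WT (blue) and *fbs1-1* (red), with the dotted line at 2 marking the low end of the scale. AT2G01090 was chosen for its difference, and its neighbours differ by at most 0.23.

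The profile of AT2G01090 over the 6 arrays was most like those of *SNRK2.2* (AT3G50500, a protein kinase of abscisic acid signalling), *CSR1* (AT3G48560, acetolactate synthase, which makes branched-chain amino acids) and AT1G50290. Pearson's r was 0.9989, 0.9985 and 0.9982 among 13589 genes compared. Signal was 3.05-fold, 6.87-fold and 12.6-fold higher in *fbs1-1*, respectively. For AT1G50290 the mean was 1.02 in WT, a level too low for signal to track RNA well. Its 12.6-fold therefore describes signal, and the fold in RNA is unknown. These r values rest on the gap between the genotype groups, so they say only that each gene differs between genotypes by much more than it varies within them. By this measure 22 genes reached r of 0.99 and 386 reached 0.9. *SNRK2.2* and *CSR1* were tied to probe sets only through the study's own tables of differing genes. Genes tied in this way entered the comparison because they differ between genotypes, which raises both counts.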

How the data were processed

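RNA of 6 seedling samples was measured on ATH1 arrays. The authors made the deposited log2 values with RMA, a method of background correction, normalization across arrays and summary over the probes of a set. The version is not given in the sources used here. Quantile-type normalization between arrays removes shifts common to all genes. Samples were grouped by the labels. After 64 control probe sets were left out, WT and *fbs1-1* were compared with limma 3.58.1 in R 4.3.3, with genotype as the only term and Benjamini-Hochberg adjustment over all 22746 probe sets at 0.05. For a difference between paralogs, exact permutation tests over arrays were run in scipy 1.17.1. Rank products, with 100 permutations over 9 array pairs, were written anew with numpy 2.4.6 and pandas 2.3.3 under Python 3.11.15, because the package of the methods was not installed. Both were tested on simulated data. Figures were drawn with matplotlib 3.10.9.

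Genes were tied to probe sets by the platform annotation and, where it lists none, by the study's tables used as a probe map. Of the tested probe sets, 13514 name 1 gene and 502 name several. Gene order is that of TAIR10.1. The study's annotation is TAIR10, so coordinates were left out. The members and gene lists were chosen with earlier results of these data known. Named genes are all members, all other measured complex III genes, each list's passing genes or else the 1 with the lowest p, and the 3 closest profiles to AT2G01090. Neighbours and paralogs shown beside them, and the tissue markers, fall outside that rule.

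Alternatives were blocks for replicate number or array set, the arrays numbered 59 to 62 alone, median centring, a filter below the 40th percentile of mean value, a trended robust variance, array weights, rank products, linear means for pairs, and each array left out in turn. Promoter and protein sequences were not analysed here. Arrays have no read depth, and 3 per genotype limit the precision. The p-values measure only the spread between these samples.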

Additional observations from a re-analysis of the deposited data

How the results depend on the processing

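Array weights were the only alternative that changed the number of members called other than AT2G01090, from 0 to 1, the addition being AT3G27240. Counted with AT2G01090, which chose the set and whose call is no result, this is 2. They also took the other respiratory chain genes from 0 to 1, *CYTC-2*. Over all probe sets, the 740 calls (358 higher in WT, 382 in *fbs1-1*) became 1219 (569 and 650) with the array set as a block and 1195 (570 and 625) with array weights. Leaving out 1 array gave 282 to 657 calls, 142 to 338 higher in WT and 140 to 319 higher in *fbs1-1*, and the causes were not tested.

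Differences near 0 changed sign. AT5G05370 moved to 0.0426 with array weights, 0.00912 after median centring and 0.0753 on the second array set, and AT5G40810 to 0.0170, 0.00995 and 0.0524. With 1 array left out, the ranges were -0.0063 to 0.0703 for AT1G15120, -0.18 to 0.15 for AT5G25450, -0.13 to 0.11 for AT5G05370, -0.0653 to 0.0345 for AT5G40810, -0.14 to 0.0370 for AT3G52730 and -0.24 to 0.0145 for AT2G40765. None of these passed limma's test under any alternative. The shift between paralogs kept its sign in every measured pair under 10 alternatives. With 1 array left out, it was -0.35 to -0.02 for QCR7, 0.13 to 0.27 for QCR8 and -0.41 to -0.30 for cytochrome c1. For QCR6 it was -4.62 to -4.45, a description only, because the difference of AT2G01090 chose that pair.

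Samples of the same replicate number deviated together with r of 0.28, 0.09 and 0.14, not all above 0.1, and not every sample correlated best with its own number, so the numbers were not taken to pair the samples. With the replicate block, limma called 1028 probe sets (487 higher in WT, 541 in *fbs1-1*) and 0 members other than AT2G01090. No member had a second probe set to try. Probe sets near or below 2, such as AT5G25450 and AT2G01090 in WT, limit what a fold can show, because signal there follows RNA poorly.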
